A study of Homo sapiens with 2 samples.

Results

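Genes of cholesterol and fatty acid synthesis were compared between AGS cells given 100 nM LBH589 for 24 h and AGS cells whose treatment the labels give as none, with 1 expression array for each condition. AGS is an established cell line from a human gastric adenocarcinoma, and LBH589 (panobinostat) blocks histone deacetylases, the enzymes that strip acetyl groups from histones and other proteins. The title of the control sample reads control treated, whereas its treatment label reads none. The labels name no vehicle and no culture time for this sample, and do not state whether it had a mock treatment. The genes were chosen by name, as 50 enzymes and regulators of these pathways out of 20235 genes with a symbol of their own on the array, and all 50 were found, 49 of them with 1 probe set and SREBF2 with 2.

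Cholesterol is built from acetyl-CoA through mevalonate, the isoprenoid diphosphates, squalene and lanosterol, and fatty acids are built from the same acetyl-CoA through malonyl-CoA, then lengthened by elongases and given double bonds by desaturases. Most of these genes are driven by the SREBP transcription factors, which are held in the endoplasmic reticulum by SCAP and the INSIG proteins when sterols are plentiful. When sterols run low, SREBP travels to the Golgi and is cut free by the proteases encoded by MBTPS1 and MBTPS2, so the genes of the pathway tend to move together under sterol feedback.

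Values below are deposited intensities on a linear scale without units, given as control and then LBH589. A fold is the ratio of both arrays for the same gene, and genes were called higher or lower at 2-fold. With 1 array for each condition there is no replicate error, no test and no p-value, so every difference describes these 2 arrays only. In RNA from a whole culture, fewer cells that use a gene and less of its RNA in each cell cannot be told apart. An intensity of 4.36, percentile 95 of 450 olfactory receptor probe sets, is called background. Where the dimmer array was below it the fold is given as a lower bound, and where both were below it no fold is given.

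The median intensity of all probe sets was 4.84 on the control array and 4.77 on the LBH589 array, and olfactory receptor probe sets varied in log2 ratio with an SD of 0.18. All 8 epithelial markers reached background, with intensities from 11.4 to 1967 on the control array and from 9.72 to 2292 on the LBH589 array. Of these, MUC1 (211 and 37.8) and ESRP1 (378 and 124) were 2-fold lower and KRT19 (566 and 1171) was 2-fold higher. PTPRC and CD3E of immune cells, PECAM1, CDH5, DCN and LUM of endothelial cells and fibroblasts, ADIPOQ and FABP4 of adipocytes and ALB and TTR of hepatocytes were below background on both arrays. In all, 5 of 7 immune, 3 of 10 fibroblast and endothelial, 2 of 5 adipocyte and 3 of 6 hepatocyte markers reached background on at least 1 array. The summed intensity of the immune list, most of it from LYZ, which gastric epithelium also makes, was 737 and 500, and 30.8 and 49.0 without LYZ. CORO1A of this list had 6.38 and 25.4 and was 3.98-fold higher. The sums were 59.4 and 69.8 for fibroblast and endothelial markers, where COL1A1 had 26.6 and 38.8. For adipocyte markers they were 35.2 and 60.3, where CFD had 21.1 and 45.2. For hepatocyte markers they were 27.9 and 22.0, where FGB had 6.98 and 3.58, APOA2 had 6.54 and 4.04 and APOA1 had 5.17 and 5.33. Whether these markers have a part in the results was not tested.

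The lipid synthesis genes did not shift one way as a set, but a larger share of them than of all genes was 2-fold higher after LBH589. The genes and thresholds were chosen with earlier results of these data known, so the shares below are a description only. After LBH589, 7 of the 50 genes were higher by 2-fold or more (14%), 3 were lower by as much (6%), and the other 40 were not past that size. These counts raise intensities to a floor of 2.95, and with the floor at background there were 6 higher and 3 lower, without FADS2, which is bounded at 1.80-fold. Over all 18769 detected genes, 4.90% were higher and 4.86% lower by 2-fold or more. The share of lower members was therefore near that of all genes. Over all genes, the share past 2-fold was larger among brighter ones. With a floor of 16, 8.08% of 7780 genes were higher and 7.94% lower, beside 6 and 3 of 37 members. The higher genes were ACSL3 and ACSL1, which activate long-chain fatty acids, the SREBP retention factor INSIG1, the fatty acid desaturase family members FADS3 and FADS2, the isoprenoid enzyme IDI1 and the sterol reductase TM7SF2. The lower genes were the fatty acid synthase FASN, the sterol demethylase CYP51A1 and the elongase ELOVL6.

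The median log2 ratio of the 50 genes was 0.04, beside 0.00 for all detected genes, and 26 members were above 0 and 24 below. Of the 50, 43 reached background on at least 1 array, with a median of -0.02 beside 0.01 for the 13447 genes that did so. Among those 13447 genes 6.83% passed 2-fold upwards and 6.78% downwards, and among the 43 members 16.3% and 7.0%. The lower and upper quartiles of the 43 log2 ratios were -0.43 and 0.51, and those of all such genes were -0.32 and 0.36. On these arrays the members were thus spread more widely around nearly the same centre, and none of the 10 calls reached 4-fold. The members and all genes were not matched for intensity here, although ratios past 2-fold were more frequent among brighter genes. The full range of the members' log2 ratios was -1.82 to 1.53. The central 95% of all genes reaching background, which is not a full range, was -1.56 to 1.47.

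**Figure D1:**
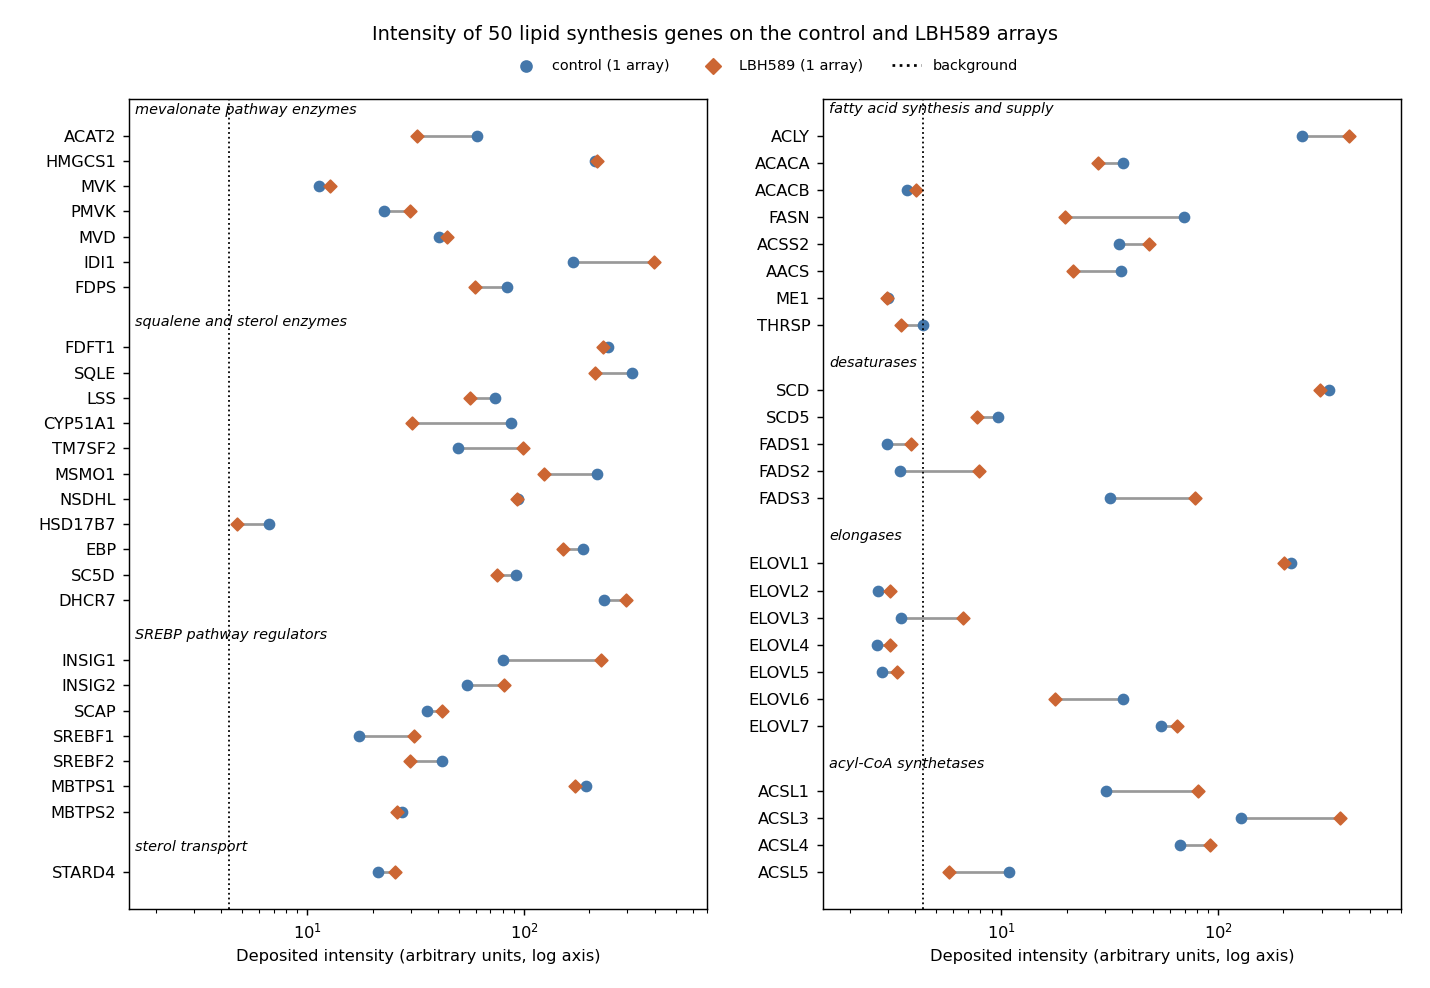
Intensity of each of the 50 genes on the control array (circles) and the LBH589 array (diamonds), on a log axis, grouped by role; the dotted line is the background of 4.36. Long bars to the right mark ACSL3, INSIG1, ACSL1, FADS3, IDI1, FADS2 and TM7SF2, long bars to the left mark FASN, CYP51A1 and ELOVL6, and 7 genes lie below background on both arrays.

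**Figure D2:**
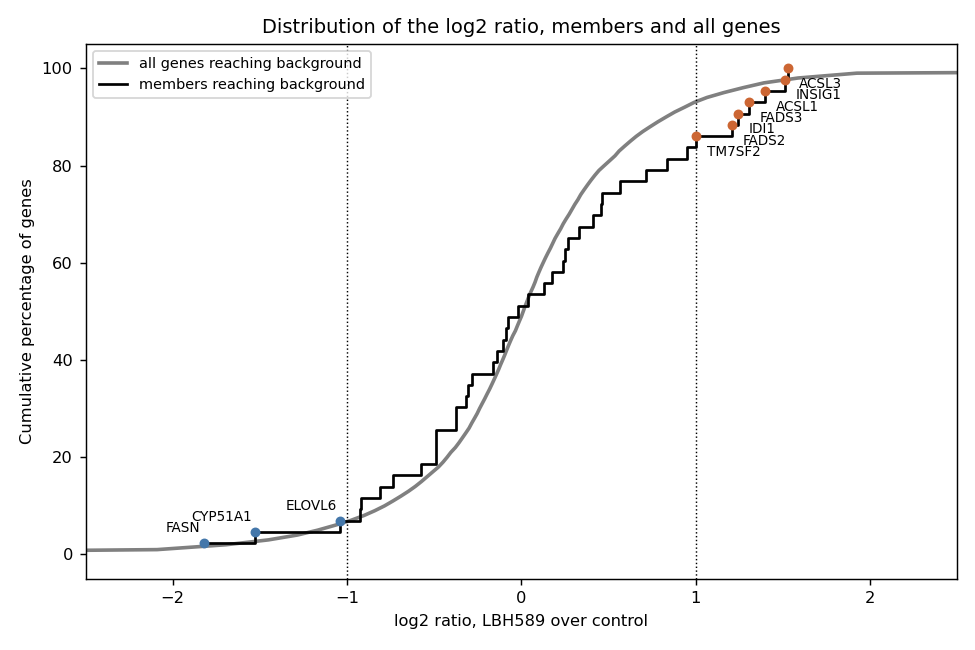
Cumulative percentage of genes against the log2 ratio of LBH589 over control, for the 43 members that reached background (black steps) and all 13447 genes that did (grey line); dotted lines mark 2-fold. Both curves cross 0 close to their middle, and the steps lie below the grey line over most of the right side, where 7 members are past 2-fold with the floor of 2.95.

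Of the 7 enzymes that lead from acetyl-CoA to farnesyl diphosphate, 1 was 2-fold higher, none was 2-fold lower and the median log2 ratio was 0.13. IDI1 (probe set 7931754), which isomerises isopentenyl diphosphate, had 169 and 399, a 2.36-fold higher intensity after LBH589. Its log2 ratio of 1.24 lay at percentile 95.7 of all genes reaching background. HMGCS1, which makes the HMG-CoA from which mevalonate is formed and is a well-known SREBP target, had 212 and 218. HMGCS1 thus showed almost no difference on the arrays on which IDI1 was more than 2-fold higher. The reason for this contrast was not tested. The mevalonate and phosphomevalonate kinases MVK and PMVK had 11.3 and 12.8, and 22.5 and 29.9. MVD, the decarboxylase that follows them, had 40.5 and 44.3. ACAT2, the cytosolic thiolase of the first step, had 60.8 and 32.1 and was 1.90-fold lower, short of 2-fold. FDPS, which makes farnesyl diphosphate, had 83.5 and 59.5.

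Of the 11 enzymes from squalene to cholesterol, CYP51A1 was 2-fold lower, TM7SF2 was 2-fold higher and the other 9 lay within 2-fold. The median log2 ratio was -0.31, and 9 of 11 were below 0, of which NSDHL (-0.02) and FDFT1 (-0.08) were close to 0. Both lay within the SD of the olfactory receptor probe sets, which are dim and give no error for bright genes. With arrays centred on their medians NSDHL was above 0 and 8 of 11 were below. With a floor of 16, 8 of 11 were also below 0, because HSD17B7 (6.65 and 4.74) was under that floor on both arrays. Over all genes reaching background, 49.0% of log2 ratios were below 0. CYP51A1 (probe set 8140864), the cytochrome that removes a methyl group from lanosterol, had 87.4 and 30.3, a 2.88-fold lower intensity after LBH589. TM7SF2 (probe set 7941148), a reductase that acts on the product of CYP51A1, had 49.7 and 99.4, a 2.0-fold higher intensity that only just met the size called. Successive steps of the pathway thus stood on opposite sides of 0. With 50 added to every intensity, which shrinks the ratios of dim genes most, neither reached 2-fold, at log2 ratios of -0.77 for CYP51A1 and 0.58 for TM7SF2, and under quantile normalization TM7SF2 was at 0.98.

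The other sterol enzymes all lay within 2-fold. MSMO1 (listed as SC4MOL), the oxidase that removes methyl groups after CYP51A1, had 218 and 124 and was 1.76-fold lower. SQLE, the squalene epoxidase, had 316 and 212 and was 1.49-fold lower. FDFT1, which joins farnesyl units into squalene, had 244 and 232. LSS, which cyclises epoxidised squalene to lanosterol, had 73.1 and 56.4, and the dehydrogenases NSDHL and HSD17B7 had 93.6 and 92.5, and 6.65 and 4.74. Of the last enzymes of the route, the isomerase EBP had 188 and 152, the desaturase SC5D (listed as SC5DL) had 91.7 and 75.4, and DHCR7, whose product is cholesterol, had 235 and 295. DHCR7 was the member of this group, besides TM7SF2, with a log2 ratio above 0 (0.33). Over all 18 enzymes from ACAT2 to DHCR7, 7 log2 ratios were above 0 and 11 below, with 2 genes past 2-fold upwards and 1 downwards.

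Of the genes that sense sterols, INSIG1 was 2-fold higher, and INSIG2 and SCAP were within 2-fold. INSIG1 (probe set 8137526), which binds SCAP when sterols are plentiful and is itself a strong SREBP target, had 79.7 and 227, a 2.85-fold higher intensity after LBH589. INSIG2, its relative with the same retention role, had 54.5 and 80.6 and was 1.48-fold higher. INSIG1 and HMGCS1 are both textbook targets of SREBP, and their log2 ratios differed by 1.47. Whether SREBP or sterol feedback has a part in these values was not tested. SCAP, the escort protein, had 35.5 and 41.9.

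The genes of the transcription factors lay on opposite sides of 0. SREBF1, whose products favour fatty acid genes, had 17.4 and 31.0 and was 1.78-fold higher. SREBF2, whose product favours cholesterol genes, had 41.8 and 29.8 by its RefSeq probe set and was 1.4-fold lower. The other SREBF2 probe set was below background, with 3.50 and 3.08. Neither gene reached 2-fold, and their log2 ratios differed by 1.33. The proteases that release SREBP differed little, with 193 and 173 for MBTPS1 and 27.5 and 25.8 for MBTPS2. STARD4, a sterol transport protein whose gene responds to SREBP, had 21.1 and 25.4. Of these 7 regulators 1 was 2-fold higher and none lower.

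The promoters of 5 of these genes are shown because SREBP acts through a short element, usually beside boxes bound by NF-Y and SP1, and because these genes were higher (INSIG1, IDI1, ACSL1), lower (CYP51A1) or encode SREBP itself (SREBF2). Each runs from 250 bases before to 50 bases after an annotated start, 5′ to 3′ on the gene's strand, from RefSeq on GRCh38.p14. Capitals mark the core of the sterol regulatory element, TCACNCCAC, and the NF-Y box, CCAAT, on either strand.
SREBF2 (chr22:41832855-41833154, plus strand): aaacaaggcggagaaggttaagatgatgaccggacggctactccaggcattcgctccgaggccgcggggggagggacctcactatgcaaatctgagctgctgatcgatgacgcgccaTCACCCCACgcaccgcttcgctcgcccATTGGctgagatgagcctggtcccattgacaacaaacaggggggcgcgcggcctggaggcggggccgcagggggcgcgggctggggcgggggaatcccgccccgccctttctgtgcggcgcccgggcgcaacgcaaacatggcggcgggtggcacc
ACSL1 (chr4:184805504-184805803, minus strand): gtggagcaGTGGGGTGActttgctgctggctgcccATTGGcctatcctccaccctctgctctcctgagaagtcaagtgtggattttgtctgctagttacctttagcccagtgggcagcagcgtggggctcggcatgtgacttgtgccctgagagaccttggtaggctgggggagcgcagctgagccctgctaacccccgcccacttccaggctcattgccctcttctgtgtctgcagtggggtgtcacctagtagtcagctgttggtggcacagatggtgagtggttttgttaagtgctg
INSIG1 (chr7:155297628-155297927, plus strand): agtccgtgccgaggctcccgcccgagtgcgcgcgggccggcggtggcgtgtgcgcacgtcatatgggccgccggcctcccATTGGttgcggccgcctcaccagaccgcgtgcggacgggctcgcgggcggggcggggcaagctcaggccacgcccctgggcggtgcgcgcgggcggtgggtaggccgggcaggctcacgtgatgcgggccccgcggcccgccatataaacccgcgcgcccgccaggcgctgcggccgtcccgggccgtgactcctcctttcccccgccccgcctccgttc
IDI1 (chr10:1048837-1049136, minus strand): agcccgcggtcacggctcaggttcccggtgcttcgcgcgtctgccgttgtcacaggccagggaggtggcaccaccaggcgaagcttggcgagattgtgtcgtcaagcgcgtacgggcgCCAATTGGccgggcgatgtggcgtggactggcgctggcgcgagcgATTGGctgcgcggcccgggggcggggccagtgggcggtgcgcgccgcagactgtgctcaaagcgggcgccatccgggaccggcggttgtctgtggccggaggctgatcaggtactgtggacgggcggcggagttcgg
CYP51A1 (chr7:92134428-92134727, minus strand): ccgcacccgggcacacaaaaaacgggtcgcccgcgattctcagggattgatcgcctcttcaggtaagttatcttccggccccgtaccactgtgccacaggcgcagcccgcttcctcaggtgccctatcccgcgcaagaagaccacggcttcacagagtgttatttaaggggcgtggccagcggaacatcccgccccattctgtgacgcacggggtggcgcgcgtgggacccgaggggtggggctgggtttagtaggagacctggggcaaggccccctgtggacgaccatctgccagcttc

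The sterol element was found in SREBF2, 133 bases before the start, and in ACSL1, 242 bases before 1 of its annotated starts, each with an NF-Y box nearby. The IDI1 window shown held 3 NF-Y boxes, a pair of which overlap, INSIG1 held 1, and CYP51A1 held neither motif in this window. ACSL1 and IDI1 have several annotated starts. Their windows were picked for holding the sterol element (ACSL1) and the most NF-Y boxes (IDI1), and other starts of both genes held fewer such matches. Their contrast with CYP51A1 therefore follows in part from that choice. RefSeq promoters were available for 46 of the 50 genes, all but ACAT2, FASN, FDFT1 and SQLE, and 12 of the 46 had several starts. An exact match to the sterol element core was present in 2 of 46 genes (4.35%), beside 1.39% of 27305 genes in the table. Forms of the element with other letters, or outside these windows of 300 bases, were not searched for. A gene without a match may therefore still have such an element. The NF-Y box was present in 31 of 46 (67.4%) beside 39.7%, and the SP1 box, CCGCCC on either strand, in 40 of 46 (87.0%) beside 48.3%. Against the 10146 genes that reached background and have a promoter, the shares were 69.2% beside 42.7% for the NF-Y box and 89.7% beside 76.3% for the SP1 box. Matches of different motifs overlapped once in the members' promoters.

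The NF-Y box was present in all 7 genes called higher, FADS2 among them, in 24 of the 37 within 2-fold and in neither of CYP51A1 and ELOVL6, the 2 lower genes with a promoter in the table. These counts were made after the values were seen, and genes with several starts had more windows in which to hold a match. A match is a run of letters, and says nothing of whether the factor was bound in these cells.

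**Figure D3:**
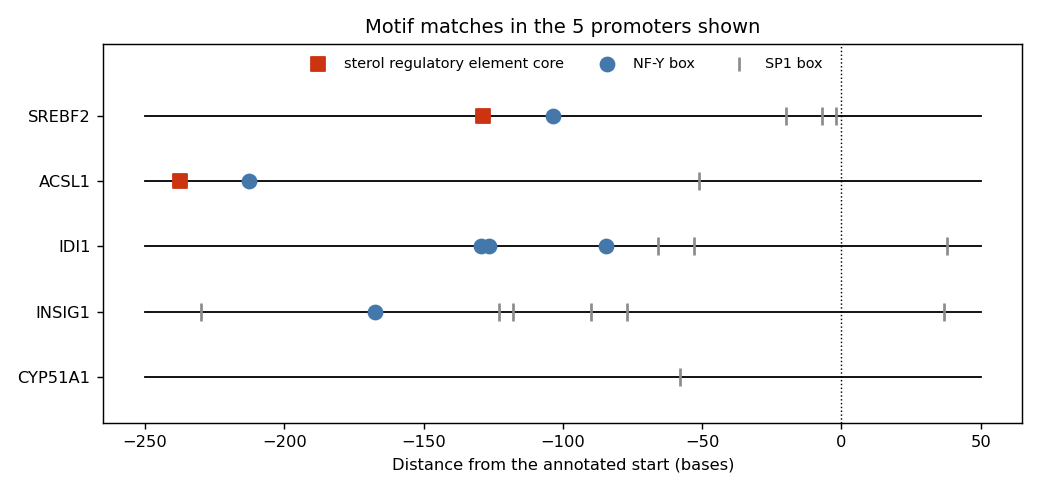
Positions of matches to the sterol regulatory element core (squares), the NF-Y box (circles) and the SP1 box (ticks) in the 5 promoters shown, in bases from the annotated start. SREBF2 and ACSL1 hold the sterol element, IDI1 holds 3 NF-Y boxes and CYP51A1 holds 1 SP1 box only. The ACSL1 and IDI1 windows were picked from several starts for these matches.

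In fatty acid synthesis ACLY, an enzyme that supplies acetyl-CoA, and FASN, a later enzyme of the route, stood on opposite sides of 0. FASN (probe set 8019392), the synthase that builds palmitate, had 69.3 and 19.6, a 3.54-fold lower intensity and the largest change in either direction among the 50 genes. Its log2 ratio of -1.82 lay at percentile 1.55 of all genes reaching background, and with 50 added to the intensities it was -0.78, short of 2-fold. ACLY, which splits citrate into the acetyl-CoA used by both pathways, had 244 and 401 and was 1.64-fold higher. The log2 ratios of ACLY and FASN differed by 2.54.

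ACACA, the carboxylase that makes malonyl-CoA for FASN, had 36.3 and 28.0. Its relative ACACB, which regulates fatty acid entry into mitochondria, was below background with 3.68 and 4.03. ACSS2, which makes acetyl-CoA from acetate, had 34.8 and 47.9, and AACS, which activates acetoacetate for lipid synthesis, had 35.7 and 21.4. These last genes were 1.38-fold higher and 1.67-fold lower. ME1, the malic enzyme that yields NADPH, and THRSP, a lipogenic regulator of liver and fat, were below background (THRSP in control cells only just), with 3.01 and 2.96, and 4.36 and 3.45. Of the 8 genes of this group, FASN was thus the only one past 2-fold in either direction.

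Among the desaturases, FADS3 was 2-fold higher, FADS2 was called so but is bounded only at 1.80-fold, and SCD and SCD5 lay within 2-fold. SCD, which puts the first double bond into saturated fatty acids, had 324 and 293, and SCD5, its second human form, had 9.63 and 7.72. FADS3 (probe set 7948630), a family member known to act on sphingoid bases, had 31.6 and 78.0, a 2.47-fold higher intensity. FADS2 (probe set 7940565), the entry enzyme of polyunsaturated fatty acid synthesis, had 3.40 and 7.85, so it was below background in control cells and at least 1.80-fold higher after LBH589, and its call rests on the lower floor of 2.95. FADS1, the next desaturase of that route, was below background on both arrays, with 2.95 and 3.82.

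FADS1, FADS2 and FADS3 lie side by side on chromosome 11 in the RefSeq gene order. FEN1, the measured gene next to FADS1, had 52.6 and 35.5, and RAB3IL1, next to FADS3, was below background with 3.60 and 3.70. FADS1 and RAB3IL1 were below background on both arrays, so no fold can be given for them and only FADS3 and FEN1 of this stretch were measured on both arrays. The call of FADS2 depended on how dim signals were handled, with a log2 ratio of 1.21, 0.85 with intensities floored at background and 0.12 with 50 added. FADS3 was at 0.65 with 50 added.

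The elongases included 3 of the 7 members below background on both arrays. ELOVL6 (probe set 8102342), which lengthens the palmitate made by FASN, had 36.4 and 17.7, a 2.06-fold lower intensity, and with 50 added its log2 ratio was -0.35. ELOVL3, known from skin and brown fat, had 3.44 and 6.64 and was at least 1.52-fold higher. ELOVL1, which makes very long saturated chains, had 216 and 201, and ELOVL7 had 54.5 and 64.7. The elongases of polyunsaturated chains, ELOVL2, ELOVL4 and ELOVL5, had 2.68 and 3.05, 2.66 and 3.06, and 2.82 and 3.31. With FADS1 also below background, 4 genes of polyunsaturated fatty acid synthesis had no signal above background on either array.

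The long-chain acyl-CoA synthetases, which activate fatty acids for use in lipids or for oxidation, had the highest median log2 ratio of the groups with more than 1 member, 0.93 over 4 genes. ACSL3 (probe set 8048733), which acts at lipid droplets and the endoplasmic reticulum, had 127 and 366, a 2.88-fold higher intensity and the largest increase among the 50 genes. ACSL1 (probe set 8103951), a main form of liver and fat, had 30.5 and 80.3 and was 2.63-fold higher. ACSL4, which prefers arachidonate, had 66.5 and 91.3 and was 1.37-fold higher. ACSL5, a form of intestinal epithelium, went the other way with 10.9 and 5.74, 1.90-fold lower. The log2 ratios of ACSL3 and ACSL5 differed by 2.45. With 50 added, ACSL3 was at 1.23 and ACSL1 at 0.69, so only the call of ACSL3 was kept.

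**Figure D4:**
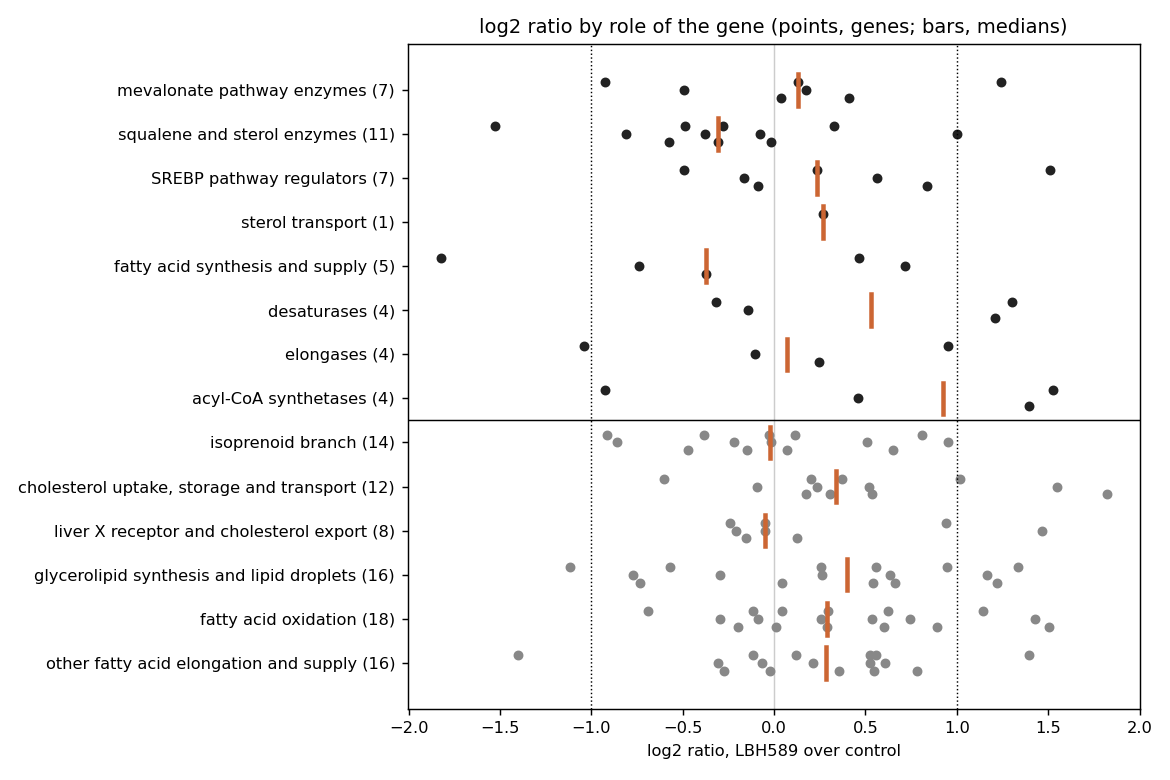
The log2 ratio of LBH589 over control for genes reaching background, by role, with the studied genes above the line and other lipid lists below it; points are genes, bars are medians, dotted lines mark 2-fold and the number of genes plotted is in brackets. The acyl-CoA synthetases have the rightmost median and the squalene and sterol enzymes lie mostly left of 0.

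Other lists of lipid genes were set beside these. For scale, 4.90% of all detected genes were 2-fold higher and 4.86% lower. Among all genes reaching background these shares were 6.83% and 6.78%. Medians are over all genes of a list unless stated, whereas the plot by role shows only genes reaching background. Of 14 genes of the isoprenoid branch, which uses farnesyl diphosphate for prenylation, ubiquinone and dolichol, none was past 2-fold, and the median log2 ratio was -0.02. GGPS1, which makes geranylgeranyl diphosphate, had 15.4 and 27.0, and the farnesyltransferase subunit FNTB had 19.2 and 10.2. Of 14 genes of cholesterol uptake, storage and transport, 3 were 2-fold higher, none was lower and the median was 0.27. For the 12 of them that reached background the median was 0.34. LIPA, the lysosomal lipase that frees cholesterol from its esters, had 132 and 464, SOAT1, which esterifies it for storage, had 51.9 and 152, and NPC1, which exports it from lysosomes, had 189 and 381. These were 3.53-fold, 2.93-fold and 2.02-fold higher.

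Of 13 genes of liver X receptor signalling and cholesterol export, 1 was 2-fold higher and none lower, and 5 were below background on both arrays, among them ABCA1 and ABCG1, the main cholesterol exporters. The higher gene was MYLIP, a ubiquitin ligase that marks lipoprotein receptors for breakdown, with 26.8 and 74.2 (2.77-fold). Of 19 genes of glycerolipid synthesis and lipid droplets, 3 were 2-fold higher and 1 was lower, with a median of 0.26. For the 16 of them that reached background the median was 0.40. DGAT1, which makes triglyceride, had 34.2 and 86.2, GPAM, the acyltransferase of the first step, had 13.0 and 30.3, and the phosphatidate phosphatase LPIN1 had 35.2 and 78.9. Its relative LPIN3 had 23.1 and 10.6 and was 2.17-fold lower.

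Of 20 genes of fatty acid oxidation, 3 were 2-fold higher, none was lower and the median was 0.27. For the 18 of them that reached background the median was 0.29. CPT1C, a carnitine palmitoyltransferase family member of neurons, had 7.00 and 19.9, HADHB, a subunit of the mitochondrial trifunctional protein, had 144 and 389, and CPT2, the inner-membrane carnitine palmitoyltransferase, had 9.89 and 21.9. CPT1A, the main form of the first step, had 54.0 and 66.2. Of 23 further genes of elongation and supply, 1 was 2-fold higher and 1 lower. OXSM, the condensing enzyme of mitochondrial fatty acid synthesis, had 11.2 and 29.3, and HACD2 (listed as PTPLB), a dehydratase that works with the elongases, had 221 and 83.5. TECR (listed as GPSN2), the reductase of the same elongation cycle, had 288 and 437.

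The calls rested to different degrees on how the intensities were handled. Of the 10 genes past 2-fold, ACSL3, INSIG1 and IDI1 stayed past it under all 10 other ways of handling them, with lowest log2 ratios of 1.23, 1.09 and 1.04. Most of these ways cannot change the ratio of a bright gene. For the called genes other than FADS2, only adding 50, centring the arrays and quantile normalization changed the ratio, so the tallies say little beyond those settings. FASN, CYP51A1, FADS3, ACSL1 and ELOVL6 stayed past it in 9 of 10, all but that with 50 added, TM7SF2 in 8 of 10 and FADS2 in 7 of 9.

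**Figure D5:**
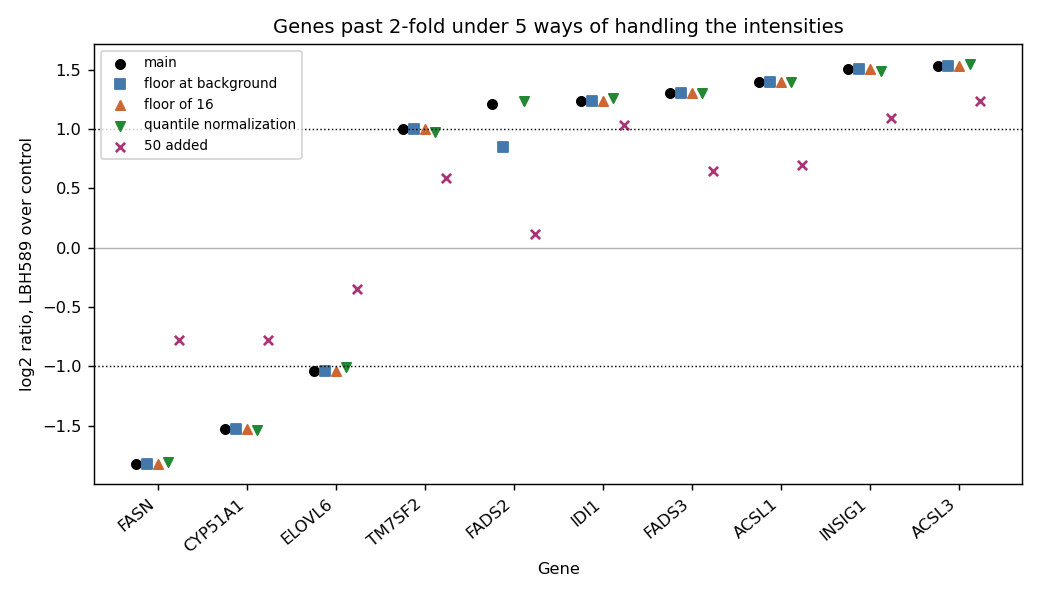
The log2 ratio of the 10 genes past 2-fold as reported (circles), with intensities floored at background (squares) or at 16 (triangles), after quantile normalization (inverted triangles) and with 50 added to each intensity (crosses); dotted lines mark 2-fold. With 50 added, only IDI1, INSIG1 and ACSL3 stay outside the dotted lines, and FADS2 has no value at a floor of 16.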

How the data were processed

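The deposited table gives 1 intensity for each of 33297 probe sets on each of the 2 arrays. Per the file headers, the authors made these intensities by RMA at the gene level, and the values show a linear scale. The submitters' processing notes name MAS5, so the sources differ on the method. The authors' deposited fold ratio equals LBH589 over control intensity throughout (largest relative difference 9.89e-09), and the series matrix held the same intensities in every row. RNA was labelled with biotin from total RNA, per the labels' protocols. No source used here gives the array design or the genome build.

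Probe sets with 1 symbol (21864) were renamed through RefSeq (GRCh38.p14) by accession, symbol or older symbol, and the probe set with the highest mean was used for each gene. Intensities under 2.95, percentile 20 of all, were raised to it before the log2 ratio was taken, and genes whose brighter array reached it were called detected. The members, lists and thresholds were chosen with earlier results of these data known. All 50 members are named. In the other lists, up to 4 genes past 2-fold are named, with a few other examples chosen after their values were seen. The number of arrays limits the precision, and p-values were not computed. The steps were tested on simulated data. Python 3.11.15, numpy 2.4.6, pandas 2.3.3 and matplotlib 3.10.9 were used.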

Additional observations from a re-analysis of the deposited data

How the results depend on the processing

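The counts of members past 2-fold (7 higher, 3 lower) were the same without a filter on dim genes, with detection required on both arrays, with arrays centred on their medians, with the median over probe sets, with the authors' deposited fold and with the series matrix, which holds the same intensities. Apart from the centring, these settings leave the ratios of the called genes as they were. There were 6 higher and 3 lower with a floor at background, with a floor of 16 and under quantile normalization. With 50 added to each intensity there were 3 higher and 0 lower, beside 0.714% and 0.778% of all genes, because the added value shrinks the ratio of dim genes. At 1.5-fold there were 10 higher and 7 lower of 50, beside 11.7% and 10.5% of all detected genes, and at 3-fold 0 higher and 1 lower, which was FASN, beside 1.44% and 1.74%. The median log2 ratio of the members, 0.04 as reported, was -0.022 with detection on both arrays (46 members), -0.018 with a floor at background (43 members) and -0.018 with a floor of 16 (37 members), where fewer genes were counted, so its sign was not settled. No called gene changed sign, and NSDHL, not called, was at 0.0018 with arrays centred on their medians. No paired analysis was possible because each group has 1 array. Signals near background limit FADS2 and ELOVL3 most.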

Other observations

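The genes on either side of the 10 called members were read from the RefSeq order of measured protein-coding genes. Besides members of the FADS cluster there were 17 such genes, of which 10 reached background and none was past 2-fold in either direction. Over all genes reaching background 6.83% were higher and 6.78% lower by 2-fold or more. With so few flanking genes, none past 2-fold lies near those shares. DUS1L, beside FASN, had 48.8 and 31.9 (log2 ratio -0.61), and CCDC57, on the other side of FASN, had 4.76 and 5.93. AKAP9 and KRIT1, which flank CYP51A1, had 10.6 and 10.8, and 27.8 and 25.2. IDI2, the paralog next to IDI1, was below background with 2.82 and 3.05, while WDR37 on the other side had 12.8 and 16.6. EN2 and HTR5A, developmental and neuronal genes that flank INSIG1, had 4.48 and 3.97, and 4.0 and 3.78.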
